A study of Mus musculus with 24 samples.

Results

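The comparison asked whether *mdx* and WT muscle cells responded differently when they were switched from growth to differentiation. It was made over 12 of the 24 RNA-seq libraries of the series, with 3 libraries each of WT myoblasts, WT 2-day myotubes, *mdx* myoblasts and *mdx* 2-day myotubes. For each gene the change from myoblast to myotube in WT cells was subtracted from the same change in *mdx* cells, and this difference of responses is given on the log2 scale, so that a positive value means a higher response in *mdx*. The 12 libraries were chosen by their labels alone, and every gene with enough reads entered the test, which left 18585 genes.

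All mice carried the Pax7-nGFP reporter, which puts a green fluorescent protein in the nuclei of *Pax7*-expressing muscle stem cells (MuSCs). WT mice were Pax7-nGFP on the C57BL/10ScSnJ background and *mdx* mice were mdx.Pax7-nGFP, with the C57BL/10ScSn-*Dmd* mdx/J allele, a nonsense point mutation in the dystrophin gene. Ages of the donor mice were not given in the sources used here. The paper describes the libraries as biological triplicates, but the labels do not say whether those 3 came from separate mice or separate cultures. The p-values measure the spread between these libraries. Myoblasts were grown from hindlimb muscle on collagen in 20% fetal bovine serum with 5 ng/mL basic FGF after magnetic depletion of CD31, CD11b, CD45 and SCA1 cells and selection for α7-integrin. Myotubes came from such myoblasts after 2 days in 5% horse serum, and no group contained living muscle tissue or fibres.

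Myoblasts are the dividing descendants of MuSCs. When growth factors are withdrawn they leave the cell cycle, switch on myogenin and fuse into multinucleated myotubes that build sarcomeres. Dystrophin, the protein that *mdx* muscle lacks, ties the actin cytoskeleton to the fibre membrane through the dystrophin-glycoprotein complex, and its muscle form is made chiefly once differentiation has begun.

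Total read counts lay between 58343353 and 60728580 in WT myoblasts, 37337731 and 44836107 in WT myotubes, 40167166 and 56882649 in *mdx* myoblasts, and 39600017 and 64429222 in *mdx* myotubes. Values per gene are given as CPM, the count per unit of library size after TMM scaling, which corrects for depth but not for transcript length, so levels are compared between libraries and not between genes. Replicates of a group correlated with a Spearman's rho of 0.962 to 0.987 across genes, as a description.

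*Mdx* myoblast replicate 2 stood apart from the other cultures. *Calcr*, the calcitonin receptor of quiescent MuSCs, was at 17.9 CPM in it, against 0.0897 and 0.958 CPM in the other *mdx* myoblasts. The 14 macrophage markers summed to 224 CPM in that library, against 7.48 to 13.1 CPM in the other 5 myoblast libraries, where between 0 and 6 of the 14 were at 0. *Lyz2*, which encodes lysozyme, was at 101 CPM in it, against 0.034 to 1.84 CPM in the other myoblasts. *Mdx* myotube replicate 3 was the next highest for these markers, at 27.9 CPM in sum. The 12 fibro-adipogenic progenitor markers summed to 455 CPM in *mdx* myoblast replicate 2 and to 281 CPM in *mdx* myoblast replicate 3, against 120 to 152 CPM in the other 4 myoblast libraries. Erythroid markers summed to 37.1 CPM in *mdx* myoblast replicate 2, against 0.125 to 2.5 CPM in the other myoblasts. The sums were 19.5 against 1.58 to 1.89 CPM for neutrophil markers and 50.2 against 11.9 to 15.7 CPM for Schwann and neural markers. For leukocyte markers they were 82.6 against 14.9 to 50.9 CPM. Endothelial and pericyte sums were highest there by a small margin. WT myoblast replicate 2 differed in another way, with a mean level of sarcomere genes of 5.68 on the log2(CPM + 0.5) scale, where the remaining WT myoblasts had 3.85 and 3.98. Genes of the Y chromosome were low in WT replicate 3 at both stages, with *Kdm5d*, a histone demethylase, at 7.98 CPM in myoblasts and 6.61 CPM in myotubes and at 29.5 CPM or more in the other WT libraries. Each result was therefore also computed without *mdx* myoblast replicate 2, and the part of these libraries in the results was not tested beyond that.

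**Figure D1:**
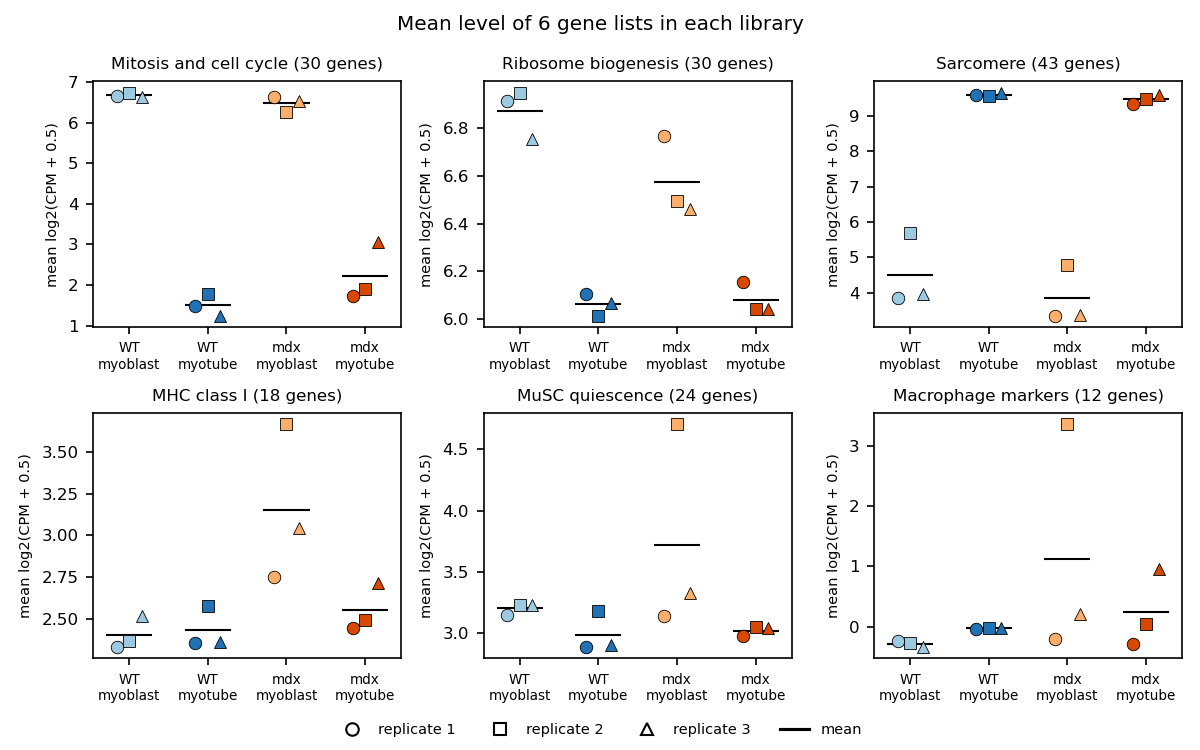
Mean level of 6 gene lists in each of the 12 libraries, as mean log2(CPM + 0.5) over the tested genes of the list, with each replicate as a symbol and the group mean as a line. *Mdx* myoblast replicate 2 is the highest library for MuSC quiescence genes (4.70) and macrophage markers (3.36), and *mdx* myotube replicate 3 is the highest myotube library for mitosis genes (3.05).

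*Dmd*, the mutated gene, was at 4.86, 12.5 and 4.27 CPM in WT myoblasts and at 181, 187 and 207 CPM in WT myotubes. In *mdx* it was at 2.08, 25.1 and 4.52 CPM in myoblasts and at 36.4, 41.5 and 33.3 CPM in myotubes. Every *mdx* myotube library was therefore below every WT myotube library (log2 difference -2.37 ± 0.76, edgeR adjusted p = 0.211), while the myoblast libraries overlapped. The WT rise was 4.73 ± 0.85 (SE) on the log2 scale and passed the test, and the *mdx* change of 1.80 ± 0.75 did not (edgeR adjusted p = 0.063). The difference of the responses was -2.93 ± 1.05 (adjusted p = 0.323). *Mdx* myoblast replicate 2 had the highest *Dmd* level of the myoblasts. Without it the *mdx* rise was 3.51 ± 0.52 and passed the test (adjusted p = 0.000314), and the lower level in *mdx* myotubes, still -2.37, was called as well (adjusted p = 0.0342). The difference of the responses was then -1.22 ± 0.60 (adjusted p = 0.542). Because *mdx* is a point mutation and the transcript is still made, its level is not in itself a check of the labels.

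In both genotypes differentiation moved a majority of the genes tested, and largely in the same direction. In WT cells 5507 genes rose (29.6%) and 5657 fell (30.4%), which is 60.1% of genes tested together. In *mdx* cells 5254 rose (28.3%) and 5438 fell (29.3%), which is 57.5%. Of the 9358 genes called in both, 9347 moved in the same direction and 11 in opposite directions. The genes called in the same direction in both were 83.7% of the WT calls and 87.4% of the *mdx* calls. Across genes the responses correlated with a Pearson's r of 0.845, given as a description because genes are not independent replicates.

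**Figure D2:**
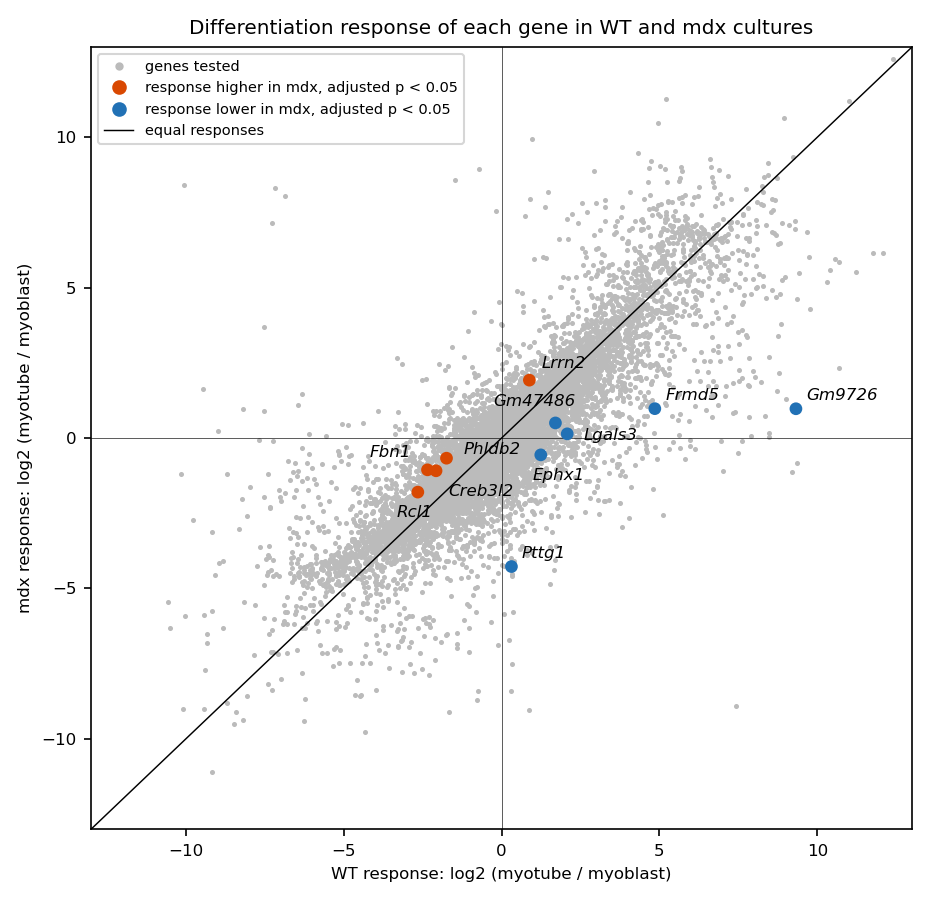
Log2 response (myotube over myoblast) of each gene tested in WT cells (x axis) and *mdx* cells (y axis), with the line of equal responses. Most genes lie along the line, and the 11 genes whose difference of responses passed the test are coloured by whether the *mdx* response was higher (5) or lower (6). The place of *Gm9726*, which had no reads in WT myoblasts, depends on the prior count of the fit.

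Among 21 myogenic regulators neither edgeR nor DESeq2 called a difference of responses over the 12 libraries. Of the genes of fusion, the sarcomere and the neuromuscular synapse edgeR called none, while DESeq2 called 2, 1 and 1 higher in *mdx*. *Myog*, which encodes the differentiation factor myogenin, was at 40.3, 231 and 49.9 CPM in WT myoblasts and at 1283, 1155 and 1263 CPM in WT myotubes. It was at 27.7, 54.8 and 35.8 CPM in *mdx* myoblasts and at 2121, 1292 and 1063 CPM in *mdx* myotubes. The gene rose in both genotypes, WT myoblast replicate 2 lay far above the other myoblasts, and the myotube ranges overlapped. Its difference of responses was 1.72 ± 0.83 (adjusted p = 0.442). *Pax7*, the transcription factor of MuSCs, fell by 2.83 in WT and by 2.73 in *mdx* on the log2 scale, with a difference of 0.10 ± 0.26. *Myod1*, which encodes the myoblast determination factor MyoD, fell by 0.93 and 0.88, with a difference of 0.05 ± 0.21. For *Cdkn1a*, which encodes the p21 inhibitor that holds cells out of the cycle, the difference was -0.02, with myotubes at 2654 to 3324 CPM in WT and at 2754 to 3183 CPM in *mdx*.

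Genes of the contractile apparatus rose strongly in both genotypes. Of 43 sarcomere genes tested, 40 rose in WT and 42 rose in *mdx*, beside 29.6% and 28.3% of all genes. The median response was 5.39 in WT and 6.24 in *mdx*. The median difference of responses was 0.97, against 0.03 over all genes, but its sign turned on myoblast libraries. It was -0.18 without WT myoblast replicate 2, 1.71 without *mdx* myoblast replicate 2 and 0.57 without both. *Myh3*, the embryonic myosin heavy chain, was at 122, 842 and 123 CPM in WT myoblasts and at 62.3, 295 and 55.9 CPM in *mdx* myoblasts, with replicate 2 highest in each. In myotubes *Myh3* was at 17722, 19304 and 17632 CPM in WT and at 15228, 15005 and 13432 CPM in *mdx*, so that every *mdx* library was lower. Its difference of responses was 1.07 ± 1.13 (adjusted p = 0.752) and changed sign without WT myoblast replicate 2. *Acta1* (skeletal actin) and *Mymk* (the fusion protein myomaker) likewise gave positive differences of 1.43 and 0.90, which changed sign without that library. All 35 tested genes of oxidative phosphorylation rose in both genotypes, beside the same shares of all genes. Their median response was 1.45 in WT and 1.40 in *mdx*. None had a difference with an unadjusted p under 0.05, where 12.3% of all genes did.

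**Figure D3:**
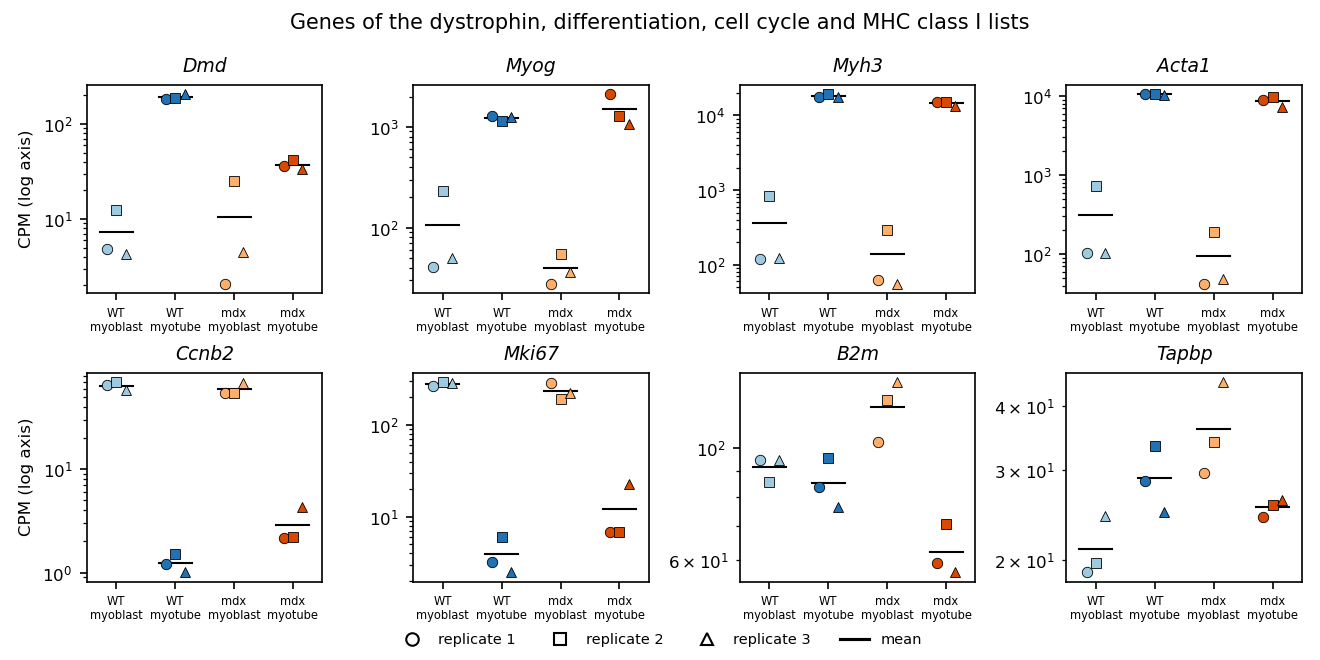
CPM on a log axis for 8 genes of the dystrophin, differentiation, cell cycle and MHC class I lists in the 12 libraries, with each replicate as a symbol and the mean of the group as a line. The *mdx* myotubes lie below the WT myotubes for *Dmd*, and for *B2m* the *mdx* myoblasts are the highest group and the *mdx* myotubes the lowest.

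The difference of responses passed the test (edgeR quasi-likelihood, Benjamini-Hochberg adjusted p under 0.05) for 11 genes, which is 0.0592% of the 18585 tested, with 5 higher (0.0269%) and 6 lower (0.0323%) in *mdx*. At an unadjusted p under 0.05 there were 2281 genes, which is 12.3% of those tested, with 1493 higher (8.03%) and 788 lower (4.24%). DESeq2 called 341 genes on the same counts, the 11 among them, and limma voom called 7. Without *mdx* myoblast replicate 2 edgeR called 0 genes, which is 0.0% of 18854 tested, with 1844 (9.78%) at an unadjusted p under 0.05, of which 1199 were higher (6.36%) and 645 lower (3.42%), and DESeq2 called 295 and voom 2. All 11 genes kept their direction in that fit, with adjusted p from 0.056 to 0.0901. No gene was called either when WT myoblast replicate 3, WT myotube replicate 1, WT myotube replicate 2 or *mdx* myotube replicate 3 was left out, so none of the 11 calls was independent of single libraries.

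The 11 genes were 9 protein-coding genes, 1 lincRNA and 1 processed pseudogene, and *Fbn1* was the one gene of the gene lists among them. In WT cells 6 of the 11 rose and 4 fell, and in *mdx* cells 3 rose and 6 fell. The WT and *mdx* libraries did not overlap in myoblasts for all 11 genes, where 21.5% of all genes did not overlap, and in myotubes for 7 genes, where 19.7% did not. Between the genotypes, 6 of the 11 differed by the test in myoblasts (0.888% of all genes) and 7 in myotubes (0.958%). These contrasts are part of the difference of responses and are given as its components.

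**Figure D4:**
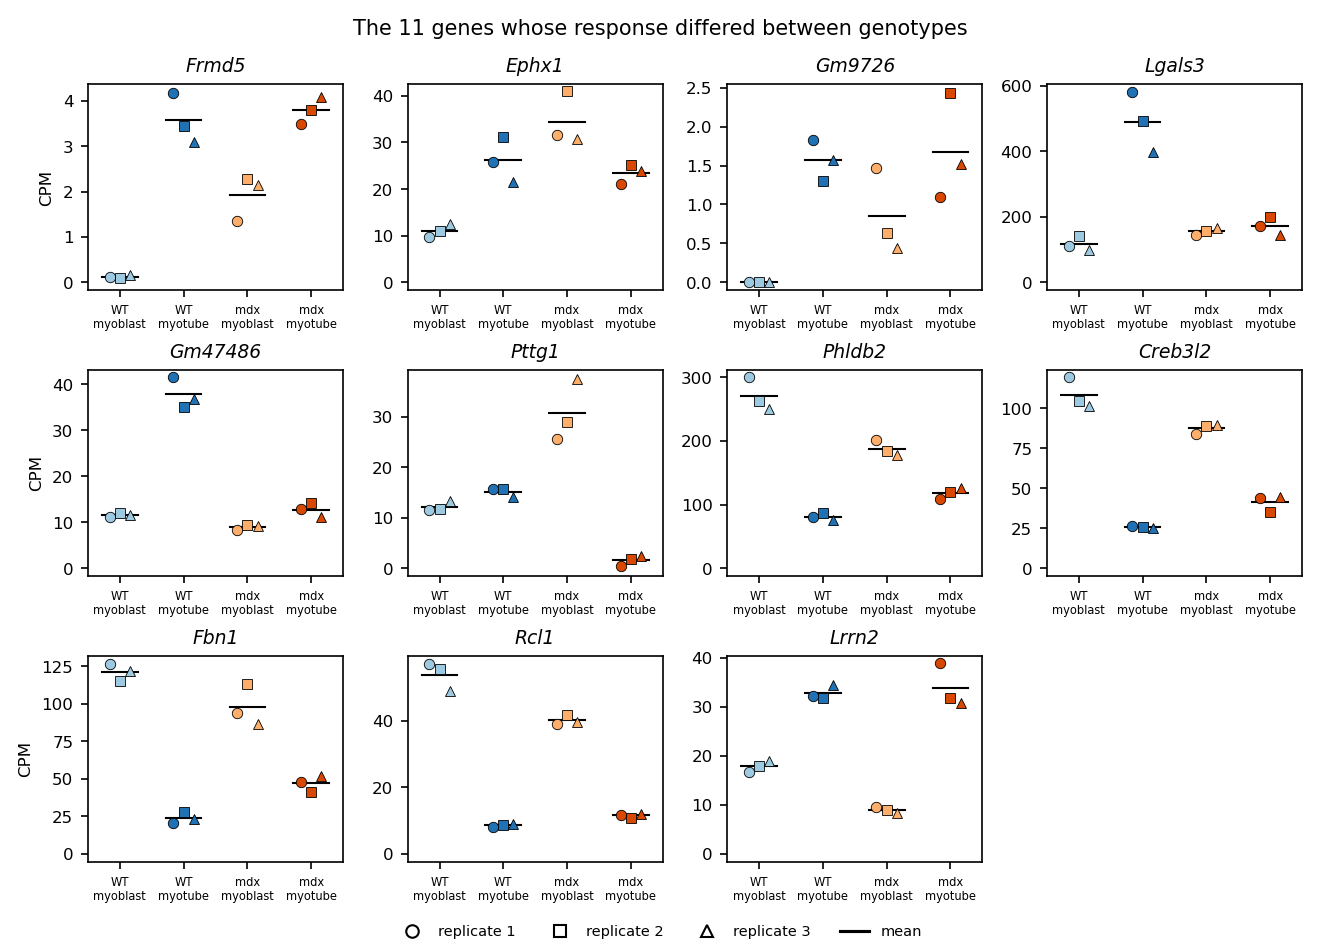
CPM of the 11 genes whose difference of responses passed the test, on linear axes from 0, with each replicate of the 4 groups as a symbol and the group mean as a line. *Frmd5* and *Ephx1* start higher in *mdx* myoblasts and meet the WT level in myotubes, while *Lgals3* and *Gm47486* rise to a higher level in WT myotubes.

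In the first pattern the genotypes were apart in myoblasts and met in myotubes. *Frmd5* (chr2:121545529-121807087, GRCm38), which encodes a FERM-domain protein, was at 0.113, 0.0972 and 0.151 CPM in WT myoblasts, which are 7, 6 and 10 reads, and at 1.36, 2.27 and 2.14 CPM in *mdx* myoblasts. It was at 4.17, 3.44 and 3.09 CPM in WT myotubes and at 3.49, 3.80 and 4.08 CPM in *mdx* myotubes. The myoblast groups were clear of each other and the myotube groups overlapped. The gene rose by 4.85 ± 0.33 in WT and by 0.98 ± 0.27 in *mdx*, a difference of -3.88 ± 0.41 (adjusted p = 0.0236). *Ephx1* (chr1:180976210-181020904), the microsomal epoxide hydrolase, was at 9.71, 10.9 and 12.6 CPM in WT myoblasts and at 25.9, 31.2 and 21.5 CPM in WT myotubes, against 31.7, 41.0 and 30.6 CPM and 21.0, 25.2 and 23.8 CPM in *mdx*. It therefore rose in WT by 1.24 ± 0.16 and fell in *mdx* by 0.56 ± 0.16, a difference of -1.80 ± 0.23 (adjusted p = 0.035), and it was 1 of the 11 genes called in opposite directions.

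*Lrrn2* (chr1:132880273-132940005), which encodes a leucine-rich repeat membrane protein, had the opposite order in myoblasts. It was at 16.6, 17.9 and 18.9 CPM in WT myoblasts and at 9.48, 8.93 and 8.27 CPM in *mdx* myoblasts, while the myotubes overlapped at 31.7 to 34.5 CPM in WT and 30.7 to 38.9 CPM in *mdx*. It rose by 0.88 ± 0.11 in WT and by 1.92 ± 0.11 in *mdx*, a difference of 1.04 ± 0.15 (adjusted p = 0.0445). *Gm9726* (chr12:93927993-93928670), the processed pseudogene, had 0 reads in the 3 WT myoblast libraries and 1.83, 1.30 and 1.57 CPM in WT myotubes. In *mdx* it was at 1.47, 0.638 and 0.446 CPM in myoblasts and at 1.09, 2.43 and 1.52 CPM in myotubes. Set against a floor of 3 reads per library, the WT rise was at least 32.9-fold and the difference of responses at least as low as -4.07 (adjusted p = 0.0483). Reads of a processed pseudogene can belong to its parent gene, so this value is uncertain.

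In the second pattern the genotypes lay closer in myoblasts and parted in myotubes. *Lgals3* (chr14:47367751-47386160), which encodes the sugar-binding protein galectin-3, was at 109.9, 141 and 97.9 CPM in WT myoblasts and at 581, 493 and 398 CPM in WT myotubes. In *mdx* it was at 143, 157 and 167 CPM in myoblasts and at 172, 198 and 145 CPM in myotubes. The WT myotubes were far above all other libraries. *Lgals3* rose by 2.08 ± 0.17 in WT, while the *mdx* change was 0.14 ± 0.17, a difference of -1.94 ± 0.24 (adjusted p = 0.035). The lincRNA *Gm47486* (chr13:10974423-10979945) was at 11.1 to 12.1 CPM in WT myoblasts and 8.26 to 9.41 CPM in *mdx* myoblasts, and at 41.5, 35.2 and 36.9 CPM in WT myotubes and 12.9, 14.1 and 11.1 CPM in *mdx* myotubes. It rose by 1.71 ± 0.11 in WT and by 0.50 ± 0.11 in *mdx*, a difference of -1.20 ± 0.16 (adjusted p = 0.035).

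*Pttg1* (chr11:43420250-43426251) encodes securin, which keeps sister chromatids from separating before anaphase. It was at 11.6, 11.7 and 13.3 CPM in WT myoblasts and at 15.6, 15.8 and 14.1 CPM in WT myotubes, against 25.7, 29.1 and 37.5 CPM in *mdx* myoblasts and 0.426, 1.85 and 2.41 CPM in *mdx* myotubes. The *mdx* libraries were the highest before differentiation and the lowest after it. *Pttg1* fell in *mdx* by 4.27 ± 0.45, while the WT change was 0.31 ± 0.39, a difference of -4.58 ± 0.58 (adjusted p = 0.0355). The 30 mitosis and cell cycle genes listed separately all fell in WT, with a median of -5.51, so the WT values of *Pttg1* did not follow theirs.

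In the third pattern a gene fell in both genotypes, but by less in *mdx*, with the *mdx* libraries lower in myoblasts and higher in myotubes. *Phldb2* (chr16:45746243-45953598) encodes LL5-beta, which anchors microtubules at the cell cortex and takes part in clustering acetylcholine receptors in muscle. It was at 301, 262 and 249.7 CPM in WT myoblasts and at 80.4, 87.0 and 75.0 CPM in WT myotubes, and at 202, 184 and 177 CPM and 108, 120.2 and 125 CPM in *mdx*. No library of one genotype reached the range of the other at either stage, and the difference was 1.07 ± 0.13 (adjusted p = 0.035). *Fbn1* (chr2:125300594-125507993), which encodes the microfibril protein fibrillin-1, was at 127, 115 and 122 CPM in WT myoblasts and at 20.4, 27.7 and 23.5 CPM in WT myotubes. In *mdx* it was at 93.5, 113 and 86.6 CPM in myoblasts and at 48.0, 41.4 and 51.6 CPM in myotubes, a difference of 1.29 ± 0.18 (adjusted p = 0.0445).

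*Creb3l2* (chr6:37327255-37442146), a membrane-bound transcription factor of the endoplasmic reticulum, and *Rcl1* (chr19:29101375-29143929), which takes part in the processing of ribosomal RNA, had the same pattern. *Creb3l2* was at 119, 104 and 102 CPM and then 26.1, 25.8 and 25.3 CPM in WT, and at 83.6, 89.0 and 89.3 CPM and then 43.6, 34.9 and 44.7 CPM in *mdx*. *Rcl1* was at 57.1, 55.6 and 49.0 CPM and then 8.13, 8.74 and 8.83 CPM in WT, and at 39.1, 41.8 and 39.7 CPM and then 11.7, 10.9 and 12.1 CPM in *mdx*. For both genes no library of one genotype reached the range of the other at either stage. The differences were 0.99 ± 0.14 (adjusted p = 0.0439) for *Creb3l2* and 0.86 ± 0.12 (adjusted p = 0.0439) for *Rcl1*, and 4 of the 5 genes with a higher response in *mdx* had this shape.

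Genes just outside the threshold had differences of both signs. *Pcdhgc4* had a difference of -2.35 (edgeR adjusted p = 0.053), while the 4 genes that follow had positive ones. *Sept11*, a septin of the cytoskeleton, was at 401, 404 and 399 CPM in WT myoblasts and 252, 274 and 283 CPM in WT myotubes, against 318, 295 and 323 CPM and 335, 328 and 309 CPM in *mdx*. Its WT fall had no counterpart of a called size in *mdx*, and the difference was 0.63 ± 0.09 (adjusted p = 0.053). *Mmp14*, the membrane protease that cleaves collagen, had a difference of 0.99 ± 0.16 (adjusted p = 0.0815). *Anxa6*, a calcium-dependent membrane-binding annexin, was at 685, 640.5 and 685 CPM and then 482, 523 and 518 CPM in WT, and at 552, 504 and 584 CPM and then 648, 689 and 797 CPM in *mdx*. It fell in WT by 0.40 and rose in *mdx* by 0.38, and its difference was 0.78 ± 0.13 (adjusted p = 0.0815). *Kifc3*, a minus-end-directed kinesin, reached 126, 129 and 131 CPM in *mdx* myotubes against 64.7, 62.5 and 73.9 CPM in WT myotubes, with a difference of 1.09 ± 0.18 (adjusted p = 0.0873).

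*Map1a*, which encodes a microtubule-associated protein, repeated the pattern of *Frmd5*. It was at 3.40, 6.80 and 3.08 CPM in WT myoblasts and 126, 124 and 141 CPM in WT myotubes, and at 31.2, 38.4 and 54.0 CPM and 127, 186 and 199 CPM in *mdx*. Every *mdx* myoblast library exceeded every WT one, by a called difference of 3.22 ± 0.33, and the response differed by -2.83 ± 0.43 (adjusted p = 0.0725). *Parp10*, which encodes an interferon-inducible ADP-ribosyltransferase, was at 6.10, 5.63 and 6.80 CPM in *mdx* myoblasts and between 1.06 and 2.18 CPM in all other libraries, with a difference of -1.96 ± 0.37 (adjusted p = 0.119). *P2rx7*, an ATP-gated channel, was at 12.4, 8.88 and 16.8 CPM in *mdx* myoblasts and had a difference of -2.35 ± 0.48 (adjusted p = 0.162). *Ntn4*, which encodes the secreted protein netrin-4, depended most on *mdx* myoblast replicate 2, at 2.51, 21.9 and 2.01 CPM in *mdx* myoblasts against 113, 68.2 and 91.1 CPM in WT myoblasts. Its difference was 2.62 ± 1.09 (adjusted p = 0.374) and became 4.58 without that library (adjusted p = 0.056).

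Over the 12 libraries the gene list with the highest median difference was that of mitosis and the cell cycle. All 30 genes fell in both genotypes, with a median of -5.51 in WT and -4.28 in *mdx*, and all 30 had a positive difference of responses. Over all genes 30.4% fell in WT and 29.3% in *mdx*, and 52.7% of differences were positive. The median difference of the list was 1.28 against 0.03 over all genes. With edgeR none of the 30 passed the adjusted test over the 12 libraries, while DESeq2 called 3 higher, and edgeR called 1 without *mdx* myotube replicate 2. In edgeR 19 were higher and 0 lower at an unadjusted p under 0.05, where 8.03% of all genes were higher. *Mki67*, the proliferation marker, was at 3.25, 6.09 and 2.50 CPM in WT myotubes and at 6.84, 6.85 and 22.5 CPM in *mdx* myotubes, down from 191 to 292 CPM over the 6 myoblast libraries. Its difference was 1.90 ± 0.65 (adjusted p = 0.310). *Ccnb2*, which encodes cyclin B2, was at 1.22, 1.51 and 1.01 CPM in WT myotubes and 2.15, 2.19 and 4.31 CPM in *mdx* myotubes, with myoblasts at 58.9 to 69.4 CPM in WT and 54.3 to 68.4 CPM in *mdx*. *Cdk1*, the mitotic kinase, was at 4.75, 5.67 and 4.47 CPM and at 5.61, 6.15 and 10.1 CPM in the same myotubes. In all 3 genes *mdx* myotube replicate 3 was the highest myotube library.

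Without *mdx* myotube replicate 3 the median of the mitosis list was 0.62, with 29 of 30 positive and 13 higher at an unadjusted p under 0.05. Without *mdx* myoblast replicate 2 it was 1.18, with 16 higher, and without both libraries it was 0.53, with 9 higher and 26 of 30 positive. In bulk RNA a larger share of dividing cells and more RNA of these genes per cell cannot be told apart. The 32 DNA replication genes also all fell in both genotypes, beside 30.4% of all genes in WT and 29.3% in *mdx*. Their median difference was 0.58. Of the 32, 9 were higher and 0 lower at an unadjusted p under 0.05, beside 8.03% and 4.24% of all genes. Without *mdx* myoblast replicate 2, 5 were higher and 0 lower, beside 6.36% and 3.42%. The median of the list was 0.28 without *mdx* myotube replicate 3. *Mcm7*, a subunit of the replicative helicase, had a difference of 0.59 (adjusted p = 0.238), and *Cdc6*, which loads that helicase, one of 1.68 (adjusted p = 0.248).

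Many genes expressed in G2 and mitosis carry a CHR (cell cycle genes homology region) in their promoters, with the core letters TTTGAA. In RefSeq promoters of GRCm38.p6, taken from 250 bases before to 50 after the gene start and searched on both strands, TTTGAA was found in 20 of 25 mitosis genes with a promoter in the table (80.0%), against 15.1% of 11965 tested genes with one. In the DNA replication list it was in 3 of 27 (11.1%). The promoters of *Ccnb2* (chr9:70421505-70421804, minus strand) and *Cdk1* (chr10:69352863-69353162, minus strand) are shown, with the letters TTTGAA in capitals. Among the mitosis genes that hold the letters, they had the smallest p for the difference of responses. Both carry them more than once.
Ccnb2: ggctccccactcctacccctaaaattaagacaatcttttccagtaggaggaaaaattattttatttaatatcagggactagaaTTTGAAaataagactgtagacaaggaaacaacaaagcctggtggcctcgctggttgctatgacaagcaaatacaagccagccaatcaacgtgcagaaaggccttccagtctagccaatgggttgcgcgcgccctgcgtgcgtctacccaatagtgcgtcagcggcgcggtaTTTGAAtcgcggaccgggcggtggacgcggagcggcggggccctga
Cdk1: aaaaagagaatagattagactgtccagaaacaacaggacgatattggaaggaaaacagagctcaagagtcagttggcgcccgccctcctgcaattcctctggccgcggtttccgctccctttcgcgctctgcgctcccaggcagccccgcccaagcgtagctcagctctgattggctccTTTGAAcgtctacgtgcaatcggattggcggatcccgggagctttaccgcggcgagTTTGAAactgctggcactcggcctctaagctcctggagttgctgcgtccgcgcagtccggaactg

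For ribosome biogenesis genes the values were smaller, with the same sign throughout. Of the 30 tested, 22 fell in WT and 19 in *mdx*, beside 30.4% and 29.3% of all genes. The difference was positive for all 30, with a median of 0.32. With edgeR none passed the adjusted test, while DESeq2 called 4 higher. In edgeR 14 were higher and 0 lower at an unadjusted p under 0.05, beside 8.03% and 4.24% of all genes. Without *mdx* myoblast replicate 2, 9 were higher and 0 lower, beside 6.36% and 3.42%. *Nip7*, a factor of the large ribosomal subunit, was at 52.9, 54.7 and 51.9 CPM in WT myoblasts and at 50.8, 46.4 and 49.8 CPM in WT myotubes. It was at 43.1, 41.5 and 39.4 CPM in *mdx* myoblasts and at 60.7, 54.2 and 50.9 CPM in *mdx* myotubes, so that *mdx* was the lower genotype before and the higher after. It rose in *mdx* by 0.42, while the WT change was -0.12, and the difference was 0.54 ± 0.11 (adjusted p = 0.158). The nucleolar proteins *Npm1* and *Ncl* had differences of 0.47 (adjusted p = 0.169) and 0.51 (adjusted p = 0.177). The median of the list stayed between 0.24 and 0.49 when single libraries were left out. In myoblasts all 30 genes were lower in *mdx* than in WT, with a median log2 difference of -0.275. At an unadjusted p under 0.05, 21 of them were lower, where 3079 of 18585 genes passed in either direction. Without *mdx* myoblast replicate 2 the myoblast median was -0.22 and 10 were lower, where 2311 of 18854 genes passed. Between myotubes the median over the 12 libraries was 0.063, with 1 higher and 1 lower, so most of the list did not cross as *Nip7* did.

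Genes of antigen presentation pointed the other way. MHC class I molecules display peptides at the cell surface, together with beta-2-microglobulin and after loading by a set of transporters and chaperones. Of the 18 genes of this list tested, 10 fell and 2 rose in *mdx*, and 5 fell and 7 rose in WT. Over all genes 29.3% fell and 28.3% rose in *mdx*, and 30.4% fell and 29.6% rose in WT. The difference of responses was negative for 16 of the 18, with a median of -0.84. With edgeR none passed the adjusted test, while DESeq2 called 3 lower. In edgeR 6 were lower and 0 higher at an unadjusted p under 0.05, where 4.24% of all genes were lower. *B2m*, beta-2-microglobulin, was at 94.6, 85.6 and 94.7 CPM in WT myoblasts and at 83.7, 95.5 and 76.5 CPM in WT myotubes. It was at 102, 124 and 135 CPM in *mdx* myoblasts and at 59.2, 70.6 and 56.8 CPM in *mdx* myotubes, above WT in myoblasts and below WT in myotubes without overlap. *B2m* fell by 0.95 ± 0.12 in *mdx*, while the WT change was -0.10 ± 0.12, a difference of -0.85 ± 0.17 (adjusted p = 0.157).

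*Tapbp*, the tapasin chaperone that bridges MHC class I to its peptide transporter, was at 19, 19.7 and 24.4 CPM and then 28.5, 33.3 and 24.9 CPM in WT, and at 29.6, 34.0 and 44.4 CPM and then 24.3, 25.6 and 26.2 CPM in *mdx*. It rose in WT by 0.46 and fell in *mdx* by 0.50, with a difference of -0.96 ± 0.23 (adjusted p = 0.190). *Psme1*, a proteasome activator subunit, had a difference of -0.65 (adjusted p = 0.215), and *Tap2*, a subunit of the peptide transporter, one of -1.05 (adjusted p = 0.286). *Mdx* myoblast replicate 2, the library with macrophage and other cell type markers, was the highest of all for this list. Its mean level was 3.67 on the log2(CPM + 0.5) scale, where the remaining myoblasts had 2.33 to 3.04. Without it the median was -0.35 over 17 genes, with 6 lower at an unadjusted p under 0.05, and 7 fell in *mdx*. Over the 12 libraries all 18 genes were higher in *mdx* than in WT myoblasts, by a median of 0.92 on the log2 scale. In myotubes that median was 0.23, with 13 higher and 5 lower. Without *mdx* myoblast replicate 2 the myoblast median was 0.605.

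The interferon response list held 36 tested genes, of which 15 fell and 2 rose in *mdx*, and 6 fell and 7 rose in WT. Over all genes 29.3% fell and 28.3% rose in *mdx*, and 30.4% fell and 29.6% rose in WT. Without *mdx* myoblast replicate 2 the *mdx* counts were 8 and 3, beside 5114 and 5051 of 18854 genes tested. The difference of responses was negative for 32 of the 36, with a median of -0.56. At an unadjusted p under 0.05, 6 were lower and 0 higher, beside 4.24% and 8.03% of all genes. EdgeR called none of the 36 and DESeq2 called 3 lower. *Irf9*, the DNA-binding subunit of the interferon-activated factor ISGF3, was at 11.5, 11.3 and 10.2 CPM in *mdx* myoblasts and at 5.18 to 7.13 CPM in the 9 other libraries. It fell in *mdx* by 0.87 ± 0.15, while the WT change was -0.15 ± 0.15, a difference of -0.72 ± 0.21 (adjusted p = 0.248). *Bst2* (tetherin) and *Ifi35* both rose in WT and did not pass the test in *mdx*, with differences of -0.91 (adjusted p = 0.197) and -0.91 (adjusted p = 0.200). *Isg15*, a ubiquitin-like modifier, had a difference of -0.18 (adjusted p = 0.963). The median was -0.43 without *mdx* myoblast replicate 2, with 5 lower. In myoblasts 34 of the 36 were higher in *mdx* than in WT, by a median of 1.33. At an unadjusted p under 0.05, 27 were higher, beside 3079 of 18585 genes in either direction, and 4 were called. Without *mdx* myoblast replicate 2 that median was 1.145, with 18 higher and 0 called. Between myotubes it was 0.63 over the 12 libraries, with 12 higher and 2 lower. Of the 36, 12 passed the filter of at least 5 CPM in 3 libraries.

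The interferon-stimulated response element, searched on both strands as GAAA, any pair of bases and GAAA again in the same promoter windows, was found in 15 of 26 interferon response genes (57.7%) and in 4 of 16 MHC class I genes (25.0%), against 3.68% of tested genes. The promoters of *B2m* (chr2:122147437-122147736, plus strand) and *Psme1* (chr14:55578244-55578543, plus strand) are shown as members of the MHC class I list that hold it, with the match in capitals, on the opposite strand in *Psme1*.
B2m: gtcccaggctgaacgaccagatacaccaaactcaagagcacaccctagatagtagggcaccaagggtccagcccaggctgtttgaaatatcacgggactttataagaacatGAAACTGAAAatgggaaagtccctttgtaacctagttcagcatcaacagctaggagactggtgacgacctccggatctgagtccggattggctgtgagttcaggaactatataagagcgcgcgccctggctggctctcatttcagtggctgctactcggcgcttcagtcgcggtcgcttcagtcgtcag
Psme1: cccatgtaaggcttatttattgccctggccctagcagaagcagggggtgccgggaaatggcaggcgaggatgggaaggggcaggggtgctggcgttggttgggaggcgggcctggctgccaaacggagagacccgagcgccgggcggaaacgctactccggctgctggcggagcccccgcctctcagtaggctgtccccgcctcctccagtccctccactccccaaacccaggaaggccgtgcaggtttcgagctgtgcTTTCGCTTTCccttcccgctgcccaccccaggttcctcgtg

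Cytoskeleton and adhesion genes mostly had positive differences. Of 34 tested, 23 fell in WT and 18 in *mdx*, 29 had a positive difference, and the median was 0.39, with 12 higher and 1 lower at an unadjusted p under 0.05. Over all genes 30.4% fell in WT and 29.3% in *mdx*, and 52.7% of differences were positive, 8.03% higher and 4.24% lower. Without *mdx* myoblast replicate 2, 9 of 33 were higher and 2 lower, beside 6.36% and 3.42% of all genes. *Tpm4*, a cytoplasmic tropomyosin, fell in both genotypes, with a difference of 0.73 (adjusted p = 0.195). *Pxn*, which encodes paxillin of the focal adhesion, rose in *mdx* and had a difference of 0.65 (adjusted p = 0.215). Over the 12 libraries the member lower at an unadjusted p under 0.05 was *Vim*, the intermediate filament vimentin, at -0.58 (adjusted p = 0.228).

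Among matrix glycoproteins and proteoglycans, 18 of 31 fell in WT and 14 in *mdx*, beside 30.4% and 29.3% of all genes. At an unadjusted p under 0.05, 7 differences were positive and 1 negative, beside 8.03% and 4.24% of all genes. *Sparc*, a collagen-binding matricellular protein, was at 1890.0, 1564 and 1784 CPM in WT myoblasts and at 766, 835 and 897 CPM in WT myotubes. It was at 940.2, 566 and 591 CPM in *mdx* myoblasts and at 1254, 648 and 751 CPM in *mdx* myotubes, so the myoblasts were clear of each other and the myotubes overlapped. It fell in WT by 1.07 ± 0.25, while the *mdx* change was 0.34 ± 0.25, a difference of 1.41 ± 0.35 (adjusted p = 0.211). *Loxl2*, which cross-links collagen, fell from 16.7 to 29.5 CPM in WT myoblasts to 0.864, 1.36 and 1.69 CPM in WT myotubes, and from 12.6 to 32.0 CPM in *mdx* myoblasts to 6.23, 5.38 and 5.47 CPM in *mdx* myotubes. It was higher in every *mdx* myotube library, and the difference was 2.19 ± 0.48 (adjusted p = 0.169). Collagen genes had a median difference of 0.05, which became 0.86 without *mdx* myoblast replicate 2. *Col1a1*, a chain of type I collagen and an abundant product of fibroblasts, reached 36.4 CPM there and 6.80 and 1.69 CPM in the remaining *mdx* myoblasts, and lay at 0.273 to 0.810 CPM in WT myoblasts.

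Signalling and regulatory genes gave values of both signs. In the Wnt list 6 differences were positive and 1 negative at an unadjusted p under 0.05, of 30 tested, beside 8.03% and 4.24% of all genes. *Wnt5a*, a ligand of the noncanonical pathway, was at 147, 97.2 and 72.0 CPM in WT myoblasts and 49.5, 61.3 and 48.2 CPM in *mdx* myoblasts, with myotubes at 12.9 to 13.9 CPM in WT and 13.9 to 22.1 CPM in *mdx*. It fell in both genotypes and its difference was 1.38 ± 0.34 (adjusted p = 0.201). Of 21 myogenic regulators, 3 were lower and 1 higher at an unadjusted p under 0.05, beside the same shares of all genes. Without *mdx* myoblast replicate 2, 2 were lower and 3 higher, beside 3.42% and 6.36%, so the order of the counts turned with that library. *Id1* and *Id3*, which encode inhibitors of MyoD-type factors, fell in both genotypes and had differences of -1.16 (adjusted p = 0.365) and -1.27 (adjusted p = 0.356). *Tead4*, a partner of YAP and TAZ, had a difference of 0.97 (adjusted p = 0.346).

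Several lists changed with *mdx* myoblast replicate 2 and are given only with that value. The median difference was -0.51 for MuSC quiescence genes and 0.06 without that library. It was -0.67 for immediate early and stress genes and -0.12 without it, and -1.10 for cytokines and chemokines and -0.58 without it. For macrophage markers it was -2.21 and 0.91. The quiescence list had a mean level of 4.70 in that library, on the log2(CPM + 0.5) scale, and of 3.14 to 3.33 in the remaining myoblasts.

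**Figure D5:**
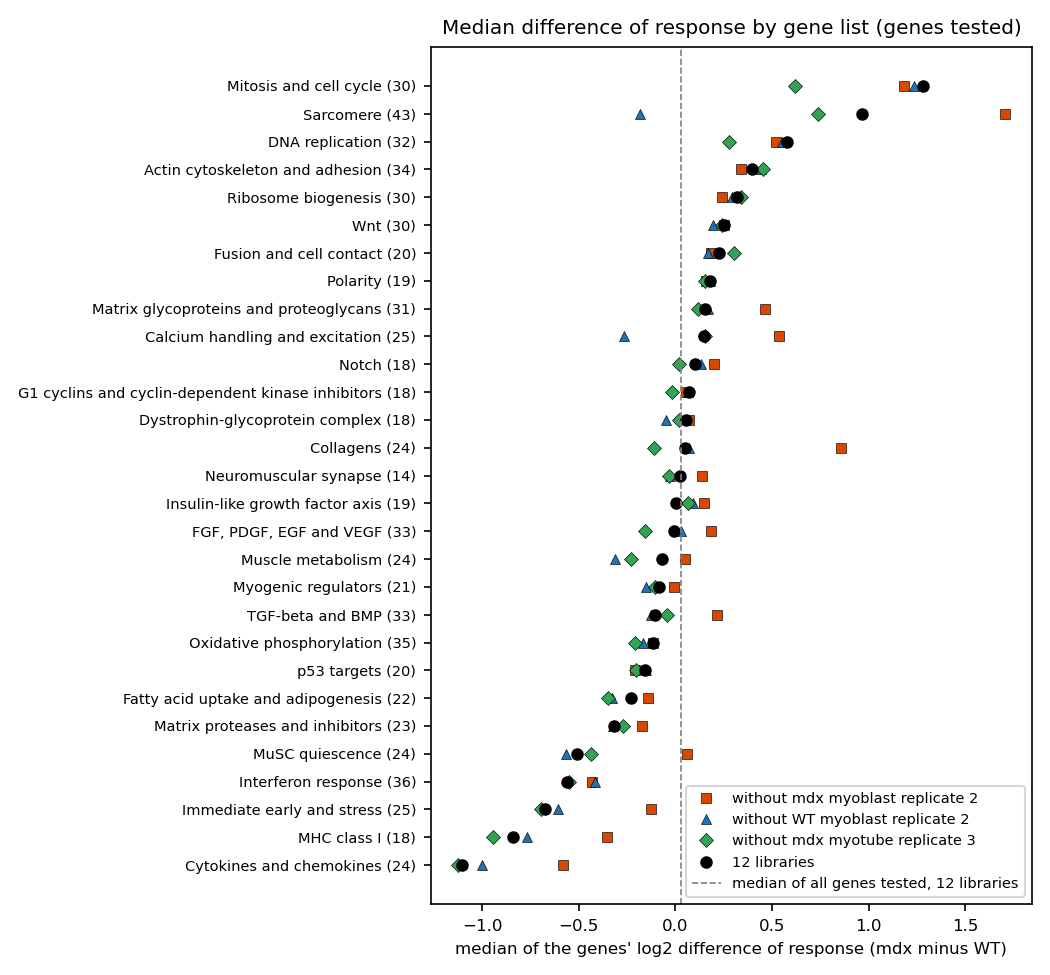
Median over the tested genes of each list of the log2 difference of responses (mdx minus WT), for the 12 libraries and with 1 library left out, and the median of all genes as a dashed line. Mitosis, DNA replication and ribosome biogenesis lie to the right and MHC class I and interferon response to the left in all 4 versions shown, while sarcomere and collagen genes move with single myoblast libraries.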

How the data were processed

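RNA from 4 cultured groups of 3 libraries was sequenced after polyA selection and directional library preparation. The authors quantified transcripts with Salmon 0.13.1 and deposited estimated counts (NumReads) per transcript, with TPM and effective lengths per transcript, which were used only as an offset in an alternative. Expected counts were summed to 53392 genes, of which 53355 matched GENCODE M21, and were rounded to whole numbers. Multi-mapped reads are shared out by the estimate, so families and pseudogenes are less certain. After filterByExpr and TMM scaling, the quasi-likelihood test of edgeR 4.0.16 (robust, adjusted p threshold 0.05) was run in R 4.3.3. Alternatives used DESeq2 1.42.0 and limma voom 3.58.1. The biological coefficient of variation was 0.33.

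The members and gene lists were chosen with earlier results of these data known. Named genes were, in each fit and direction, up to 10 called protein-coding genes with a mean of at least 2 CPM in some group, filled up with those of smallest p, then up to 4 genes of smallest p in each of 38 lists and a fixed set led by *Dmd*. The predicted loci and any other gene were named after their values were seen. List medians carry no test. In simulated data over 17865 genes for this difference, the test recovered 1.49% of 1.5-fold, 35.8% of 2-fold and 71.2% of 4-fold differences, with 5 false calls. The other 12 libraries, sorted MuSCs, entered one alternative only.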

Additional observations from a re-analysis of the deposited data

Results flagged for a closer look

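Over the 12 libraries the test of the difference between the genotypes in the response to differentiation called 11 genes with edgeR, and without *mdx* myoblast replicate 2 it called 0 (1844 at an unadjusted p under 0.05, 295 with DESeq2, 2 with voom). The log2 difference (mdx minus WT) was -3.88 for *Frmd5*, -1.94 for *Lgals3*, -1.80 for *Ephx1*, -1.20 for *Gm47486* and -4.58 for *Pttg1*. It was 1.07 for *Phldb2*, 0.86 for *Rcl1*, 0.99 for *Creb3l2*, 1.04 for *Lrrn2* and 1.29 for *Fbn1*. For *Gm9726*, which had no reads in WT myoblasts, the fitted value of -8.35 depends on the prior count and is no measure of size. The calls of single genes held in 0 to 6 of the 12 fits that each left out 1 library, with *Frmd5* called in 6, *Lgals3* in 4 and *Lrrn2* in 0.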

How the results depend on the processing

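All 11 genes kept their direction in every alternative. The counts that follow are of all genes called, whether or not they were among the 11. The count was 7 with RLE size factors, 6 with library totals, 7 with voom and 7 with the spread estimated over all 24 libraries. It was 5 with at least 5 CPM in 3 libraries, 1 with the length offset, 341 with DESeq2, and 0 to 15 with libraries left out. Among these it was 0 without *mdx* myoblast replicate 2 and *mdx* myotube replicate 3 together. It was 1 without replicate 2 of both myoblast groups, an alternative chosen after seeing the data. Without *mdx* myoblast replicate 2 the count of 0 became 295 with DESeq2, 2 with voom, 18 with no filter, 8 with at least 5 CPM, 21 with all libraries, and 0 to 14 with a further library left out. The calls between *mdx* and WT myoblasts, 165, became 1130 with DESeq2, 432 with all libraries, 307 with voom and 62 to 431 with libraries left out. Those between myotubes, 178, became 770 with DESeq2, 99 with the length offset and 51 to 329 with libraries left out. With library totals as the scaling, 4298 genes rose and 7121 fell in WT and 3716 rose and 7380 fell in *mdx*, and the median of all genes moved from -0.044 to -0.323 in WT and from -0.075 to -0.402 in *mdx*, but from 0.029 to -0.020 for the difference of responses. With libraries left out, the difference lay between -0.50 and 1.62 for *Mymk*, -0.49 and 2.35 for *Myh3*, -0.15 and 2.60 for *Acta1*, and -2.99 and 0.033 (without *mdx* myoblast replicate 2) for *Ckm*. The cause was not tested. Of 970 values of 75 named genes under the alternatives that leave out no library or a pair, 845 kept their side of the threshold, 82 lost the call and 43 gained one. Only the 11 called genes could lose a call, so all 82 lost calls were theirs. Most of the 845 belong to genes that were not called over the 12 libraries. Counting every alternative, *Frmd5* was called in 13 of 24, *Lgals3* in 11 of 25 and *Lrrn2* in 3 of 25.

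Nothing in the labels ties same-numbered libraries, and 1 of 6 correlations of their deviations was above 0.1, so the numbers were not taken as pairs. These correlations were 0.0296 to 0.318 against -0.187 to 0.151 for other pairs, and 8 of 12 libraries correlated best with their own number, a hint from the data and not from the design, as is the low *Kdm5d* of WT replicate 3 at both stages. With the replicate block the count of genes was 0 with 12 libraries (2164 at an unadjusted p under 0.05 with the number, 2376 with the number within genotype) and 0 without *mdx* myoblast replicate 2, and the calls between myotubes were 109.

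With a biological coefficient of variation of 0.33 and 3 libraries per group, differences below 2-fold were seldom within reach of the test, and a gene that missed the threshold is not shown to respond alike in both genotypes.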

Other observations

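Other genes of the muscle cell gave high differences with wide errors. *Myh7*, the slow myosin heavy chain, was at 14.2, 32.8 and 21.6 CPM in WT myotubes and at 219.8, 38.7 and 280 CPM in *mdx* myotubes, where it rose by 4.90 ± 1.03 on the log2 scale, and its difference of responses was 4.40 ± 1.30 (edgeR adjusted p = 0.270). *Mdx* myotube replicate 2 lay near the WT range. *Jam2*, a cell adhesion molecule, was at 158 to 230 CPM in the 6 WT libraries and went from 117 to 155 CPM in *mdx* myoblasts to 445, 279 and 266 CPM in *mdx* myotubes, a difference of 1.02 (adjusted p = 0.218). *Lrp4*, the agrin receptor of the neuromuscular synapse, rose in both genotypes, with a difference of 1.02 (adjusted p = 0.226), and *Dok7*, an activator of the kinase MuSK, had one of 0.59 (adjusted p = 0.302).

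On chromosome 2, between 119017779 and 125984299 (GRCm38), 96 genes were tested and 12 had a difference with an unadjusted p under 0.01, which is 12.5% against 3.49% of all genes. *Frmd5*, *Map1a*, *Fbn1* and *B2m* lie in this window. The difference was negative for 9 of the 12, among them *Stard9* (-1.61), *Trp53bp1* (-0.67) and *Sord* (-1.07), and positive for *Rmdn3* (0.56), *Shf* (1.10) and *Fbn1* (1.29). The window was chosen after these values were seen, so the shares are a description and carry no test.

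The 11 genes called in opposite directions in the genotypes are another set than the 11 whose difference passed the test, with *Ephx1* in both. *Usp44*, a deubiquitinase, fell by 1.48 in WT and rose by 1.68 in *mdx* (edgeR adjusted p of the difference = 0.0993). Its WT levels were near the floor, at 0.194 to 0.292 CPM in myoblasts and 0.0508 to 0.1125 CPM in myotubes. *Ripor2* fell by 0.66 and rose by 0.76 (adjusted p = 0.214). *Pepd*, which encodes prolidase, rose by 0.31 in WT and fell by 0.39 in *mdx* (adjusted p = 0.201).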
